A study of Mus musculus with 2 samples.

Results

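The genes followed here, 10 in all, belong to the amino acid stress response run by the transcription factor ATF4, and were read in embryonic lung with and without TAZ. They were Atf4 itself, Ddit3, Asns, Trib3, Chac1, Sesn2, Psat1, Phgdh, Slc7a11 and Mthfd2. All probe sets that the platform annotation assigns to exactly 1 of these 10 genes were taken, which gave 22 probe sets of the 34945 that name a single gene, and 10 genes of 18193. A further 2 probe sets that name Phgdh together with another gene were left out.

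RNA came from whole lungs of mouse embryos at the embryonic stage E15.5. There were 2 groups, wild type and TAZ-deficient, and the animals of both were littermates. Each group was 1 pool of 4 total RNA samples on 1 one-colour Affymetrix array (Mouse Genome 430 2.0), so there is no replicate behind any value and no test was possible. The strain, the way in which TAZ was lost, the sex of the embryos and any treatment are not stated in the labels. The pools average over animals, and in whole lung fewer cells of a type and less RNA per cell cannot be told apart.

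The ATF4 response is the transcriptional arm of the integrated stress response. When a cell runs short of amino acids, loads its endoplasmic reticulum with unfolded protein or meets other stresses, kinases phosphorylate the translation factor eIF2, which slows translation in general and at the same time lets ribosomes reach the main reading frame of the Atf4 mRNA. ATF4 protein then switches on genes that make, import and charge amino acids, together with genes that end the response or turn it towards cell death. Because much of this control acts on translation, the amount of Atf4 mRNA does not report the amount of ATF4 protein. In lung fibroblasts the serine and glycine made through this pathway feed the synthesis of collagen.

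ATF4 binds, as a dimer with C/EBP proteins, to a composite element whose core can be written TGATGNAA, or TTNCATCA where it lies on the reverse strand. In the RefSeq promoter table (GRCm38.p6), which covers 250 bases before and 50 after each annotated start, this motif was found on either strand for Asns, Chac1, Slc7a11 and Trib3, 4 of the 10 genes. Of all 32851 promoter windows of this length, 3.97% held it. The stretches around the matches are shown because this element is the sequence feature that links ATF4 to its targets. Binding to these matches was not measured. The matches are in capitals, each stretch runs 5′ to 3′ on the gene's strand, and positions count from the annotated start.
Asns, chr6:7693210-7693258, minus strand: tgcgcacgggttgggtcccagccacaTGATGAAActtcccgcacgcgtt
Chac1, chr2:119351023-119351082, plus strand: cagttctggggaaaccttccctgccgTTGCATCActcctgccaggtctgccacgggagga
Slc7a11, chr3:50443627-50443705, minus strand: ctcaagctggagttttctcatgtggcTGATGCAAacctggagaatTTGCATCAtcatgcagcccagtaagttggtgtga
Trib3, chr2:152344028-152344057, minus strand: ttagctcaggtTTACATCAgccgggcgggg

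The matches lay at positions -23 to -16 in Asns and -193 to -186 in Chac1. Slc7a11 had 2 matches, at -66 to -59 and, on the reverse strand, at -47 to -40. The Trib3 match lay just inside the transcribed part, at 15 to 22. Further motifs were searched on both strands. The antioxidant response element TGACNNNGC, which NRF2 binds, was found for Asns, Phgdh and Sesn2, 3 of 10 genes, against 12.4% of all windows. The TEAD motif GGAATG, through which TAZ acts, was found for 0 of 10 genes against 14.7% of windows, and the E-box CACGTG for 0 of 10 against 7.15%. A match describes letters only, and the absence of one says only that these letters are not in this window.

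The labels were followed by Wwtr1, the gene of TAZ, whose 3 probe sets gave 791.2, 222.9 and 176.9 signal units in the wild type pool but 11.3, 6.4 and 3.9 in the other. The tissue label was checked against markers. On the arrays 6 of 6 lung epithelial, 5 of 5 endothelial, 6 of 6 mesenchymal and 4 of 4 leukocyte genes were measured. None of them was 1.5-fold different by its probe set of highest mean signal. A dim probe set of the mesenchymal gene Pdgfra read 39.5 and 20.2, 1.96-fold lower (log2 ratio -0.97), with -0.10 at each of its brighter ones. Globin and heart muscle markers differed between the pools. Embryonic globins were higher in the TAZ-deficient pool, so that the summed signal of 4 measured red cell genes was 1722.1 against 3905.9 in wild type and TAZ-deficient pools, with 3 of 4, all globins, at least 1.5-fold higher and most of the sum from Hbb-y (926.0 and 2825.8). The fourth, the haem synthesis gene Alas2, read 662.4 and 609.2. Heart genes were lower, 691.0 against 516.8 for 4 measured genes, with 3 of 4 at least 1.5-fold lower and Myh6 at or below background. Most of the sum came from Actc1 (551.9 and 435.1), which was 1.27-fold lower. Of the 3, Myh7 (24.9 and 15.4) and Tnnt2 (30.6 and 20.1) were dim and near background, and Myl7 read 83.6 and 46.2. Over all measured genes 1.28% were at least 1.5-fold higher and 1.47% lower. Of 4 liver genes only Alb was measured (15.3 and 10.7). The part of these tissues in the values below was not tested.

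As a group, the ATF4 response genes did not move together. Asns, Psat1, Phgdh, Mthfd2 and Atf4 itself differed by less than 1.2-fold between the pools, Ddit3 was 1.32-fold higher, and the dim genes Trib3, Chac1 and Sesn2 lay close to background. Slc7a11 was at background on both arrays. Signals below the median of the arrays, 15.2 signal units, were set to that floor before ratios were taken, and a gene counts as measured when either array is above it. By this rule 9 of the 10 genes and 18 of the 22 probe sets were measured. Where a gene had several probe sets, the one with the highest mean signal stands for it.

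**Figure D1:**
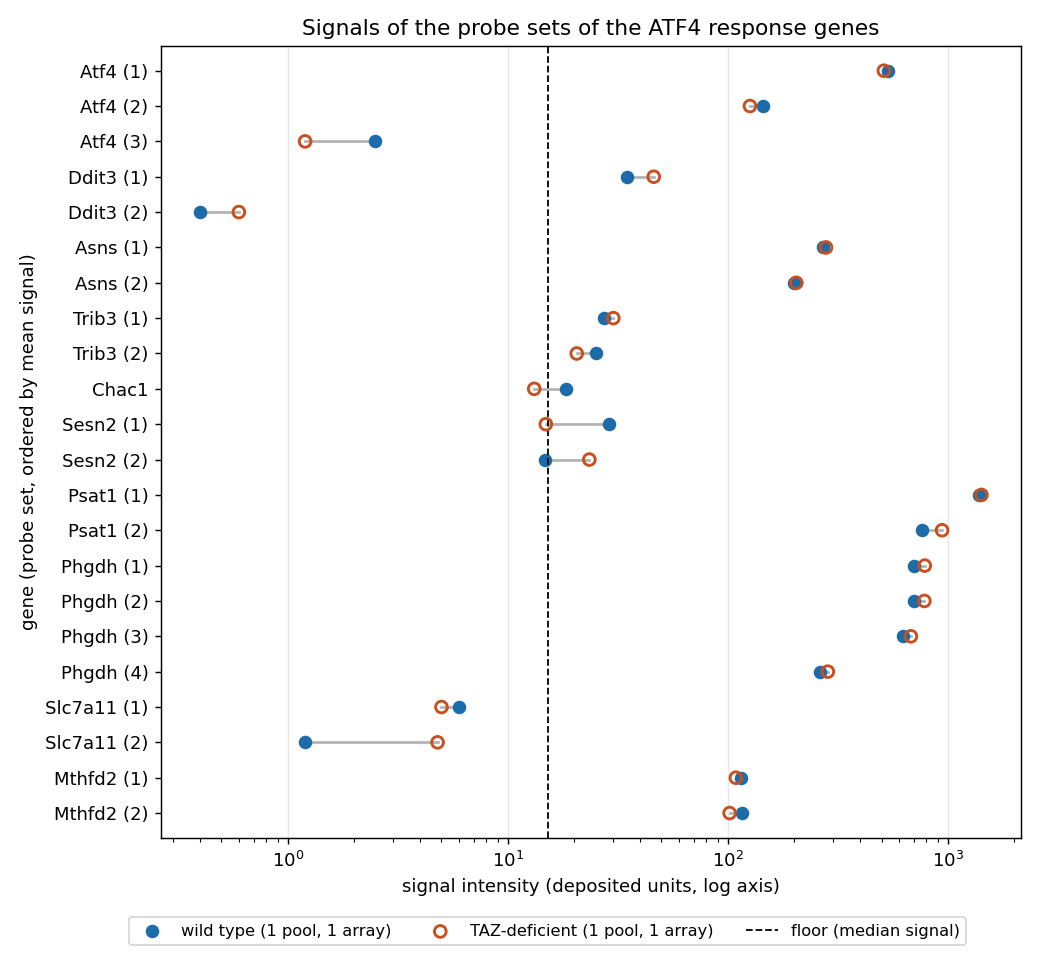
Signal of each of the 22 probe sets on the wild type array (filled circles) and the TAZ-deficient array (open circles), on a log axis in deposited signal units. The dashed line is the floor at 15.2. Most pairs nearly coincide, and the 2 probe sets of Sesn2 cross the floor in opposite directions.

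With 1.5-fold as the size rule, 0 of the 9 measured genes were higher and 1, Sesn2, was lower in TAZ-deficient lung. Over all 12032 measured genes the same rule takes in 1.28% as higher and 1.47% as lower. The ratio was above 0 for 5 genes and below 0 for 4, while 46.8% of all measured genes were above 0. The median log2 ratio was 0.04, against -0.01 over all measured genes. The sign of the median was not stable, being negative under 4 of the 8 other ways of computing ratios. The set of genes behind it also changed. With a 25th percentile floor Slc7a11 joined, which made 10, and 6 remained without probe sets of suffix s, x or a. Of the 9 genes, 6 (66.7%) were within 1.2-fold, as were 81.4% of all measured genes.

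A pair of arrays gives only 1 kind of error, the scatter among probe sets that target the same gene. Over 5201 genes with 2 probe sets above the floor on both arrays, the SD of the log2 ratio between probe sets, per probe set, was 0.19, and this holds no variation between embryos, pools or arrays. As a second yardstick, each probe set was set beside the measured genes whose mean log2 signal was within 0.5 of its own, here called genes of like signal.

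The transcription factors came first. Atf4 encodes the factor that binds the composite element. Its main probe set gave 535.7 in the wild type pool and 512.5 in the TAZ-deficient pool, a log2 ratio of -0.06. A second probe set, which carries the suffix of a cross-hybridising set, read 145.4 and 126.2, a log2 ratio of -0.20. Both were slightly lower in TAZ-deficient lung and both lay inside the central 95% of genes of like signal, which ran from -0.24 to 0.27 for the first and from -0.40 to 0.34 for the second. The third Atf4 probe set was at background, with 2.5 and 1.2.

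Ddit3 encodes CHOP, a C/EBP-related factor that ATF4 induces and that drives the later, pro-apoptotic part of the response. It gave 34.8 in the wild type pool and 46.1 in the TAZ-deficient pool, 1.32-fold higher, or 0.41 on the log2 scale. Among measured genes 96.7% had a lower ratio, but Ddit3 is dim, and the central 95% of 1590 genes of like signal ran from -0.62 to 0.59. Its other probe set was at background (0.4 and 0.6), so that the higher value rests on 1 probe set. It was the highest ratio among the 9 measured genes, each taken by the probe set that stands for it.

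Trib3 and Sesn2 encode brakes. Trib3, a pseudokinase that ATF4 and CHOP induce and that in turn holds back ATF4 and AKT, had 2 probe sets of opposite sign. The first, which carries the suffix of a cross-hybridising set, read 27.3 and 30.2, a log2 ratio of 0.15. The second read 25.3 and 20.6, a log2 ratio of -0.30. Both ratios lay well within those of genes of like signal, of which 10.9% and 12.3% differed by at least 1.5-fold, so no direction can be given for Trib3.

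Sesn2 encodes sestrin 2, a leucine sensor that restrains mTORC1 and that p53 and NRF2 can induce as well as ATF4. One probe set gave 29.0 in the wild type pool and 14.9 in the TAZ-deficient pool, at least 1.91-fold lower (log2 ratio -0.93). The other read 14.7 and 23.5, at least 1.55-fold higher (log2 ratio 0.63). The 2 probe sets thus disagreed in direction, each past 1.5-fold, although the platform annotation ties both to the same sequence record and neither carries a suffix of a shared set.

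The first Sesn2 probe set gave the only call among the genes, and by it 0.13% of measured genes had a lower ratio. It lay outside the central 95% of 1689 genes of like signal (-0.72 to 0.71), while the second lay inside (-0.71 to 0.72). The floor narrows both ranges, because it caps the ratio that a gene of low mean signal can reach. Lying outside such a range is therefore a weak mark. Of 5637 genes with at least 2 probe sets measured, 90 had their brightest at least 1.5-fold different. The second probe set had the opposite sign in 32 of those 90 and differed at least 1.5-fold the other way in 2 of them. These counts cover genes of all signals, whereas both Sesn2 probe sets lie at the floor. Opposite signs as such were frequent: they were found for 41.3% of the 5637 genes, and for 2 of the 7 response genes that had 2 or more probe sets measured, Trib3 and Sesn2.

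Chac1 and Slc7a11 act on glutathione. Chac1, an enzyme that breaks glutathione down and is a known ATF4 target, had 1 probe set, which gave 18.4 in the wild type pool and 13.2 in the TAZ-deficient pool, at least 1.21-fold lower (log2 ratio -0.28). Both signals are near the floor, where 9.27% of 1252 genes of like signal differed by at least 1.5-fold. Slc7a11, the cystine importer xCT that supplies cysteine for glutathione, read 6.0 and 5.0 at one probe set and 1.2 and 4.8 at the other. All 4 of its values were below the floor, and no fold is given for it. These 2 genes carry the composite element in the promoter stretches printed above, as do Trib3 and Asns, and of the 4 only Asns had both its probe sets well above the floor.

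The biosynthetic enzymes were clearly detected and differed little. Asns, asparagine synthetase, gave 271.0 in the wild type pool and 279.8 in the TAZ-deficient pool at one probe set and 200.6 and 205.0 at the other, with log2 ratios of 0.05 and 0.03. Asns is the classical readout of amino acid shortage, and its 2 probe sets agreed to within 0.02. The second carries the suffix of a cross-hybridising set, and the 2 are not independent readings.

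Phgdh and Psat1 catalyse the first steps of serine synthesis from a glycolytic intermediate. Phgdh, the dehydrogenase that opens the pathway, was higher in TAZ-deficient lung at all 4 of its probe sets. They read 703.5 and 786.1, 702.1 and 782.8, 623.9 and 680.1, and 262.2 and 285.1, wild type first. The folds ran from 1.09 to 1.12 and the log2 ratios from 0.12 to 0.16, inside the central 95% of genes of like signal for each probe set (-0.20 to 0.26 for the first). All 4 carry the suffix of sets with cross-hybridising probes, so they can share signal with each other and with related sequences and are not independent readings.

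Psat1, the aminotransferase of the next step, read 1381.3 and 1422.7 at its first probe set, a log2 ratio of 0.04. The second probe set read 763.6 and 942.5, 1.23-fold higher (log2 ratio 0.30). The second value lay above the central 95% of 943 genes of like signal (-0.19 to 0.25), and the first lay inside its own range (-0.15 to 0.24). Both were higher in TAZ-deficient lung, by unequal amounts, and the second carries the suffix for probes that match several transcripts. Under quantile normalization the ratio of the first was -1.5e-04, and under loess, a scaling that varies with signal, it was 0.006. The first Phgdh probe set had 0.14 under both.

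Mthfd2, the mitochondrial folate enzyme that moves one-carbon units from serine, was slightly lower in TAZ-deficient lung. Its probe sets read 115.4 and 108.9, and 116.1 and 102.0, with log2 ratios of -0.08 and -0.19. Neither carries a suffix of a shared set, and both ratios lay inside the central 95% of genes of like signal (-0.42 to 0.36 and -0.42 to 0.37).

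**Figure D2:**
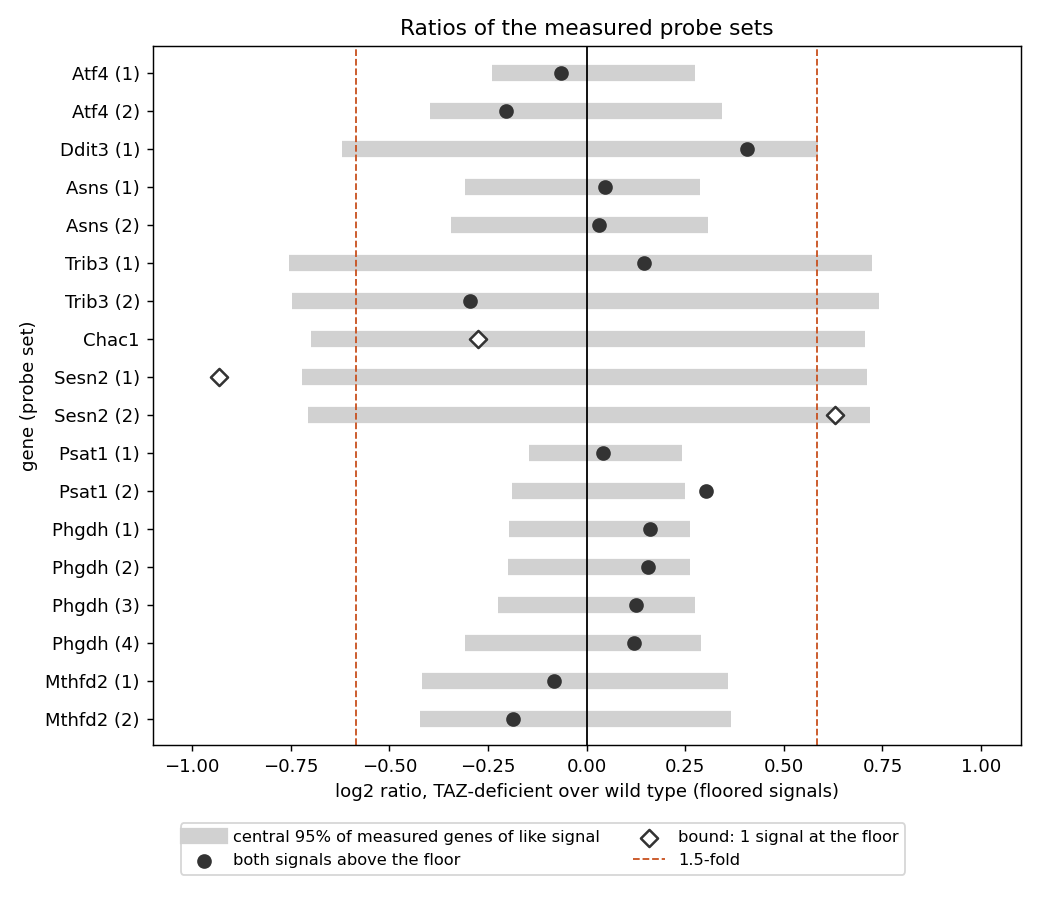
Log2 ratio (TAZ-deficient divided by wild type) for the 18 measured probe sets, after the floor; diamonds are bounds, with 1 signal at the floor. Grey bars span the central 95% of measured genes of like signal and dashed lines mark 1.5-fold. Only the first Sesn2 probe set and the second Psat1 probe set lie outside their grey bar, and only the 2 Sesn2 probe sets lie past 1.5-fold.

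By probe set, 2 of 18 measured probe sets were at least 1.5-fold different, both of Sesn2, against 3.43% of all 21294 measured probe sets that name a single gene. The largest deviations among the genes were at low signal, although dim Trib3 (log2 ratio 0.15) deviated less than bright Phgdh (0.16). The 4 genes under 50 signal units on both arrays, a dividing line chosen after the values were seen, were Ddit3, Trib3, Chac1 and Sesn2, and held the largest deviations in both directions. The other 5 had log2 ratios between -0.08 and 0.16. Across all measured genes, 8.13% of the 2670 under that line differed by at least 1.5-fold and 1.22% of those above it.

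**Figure D3:**
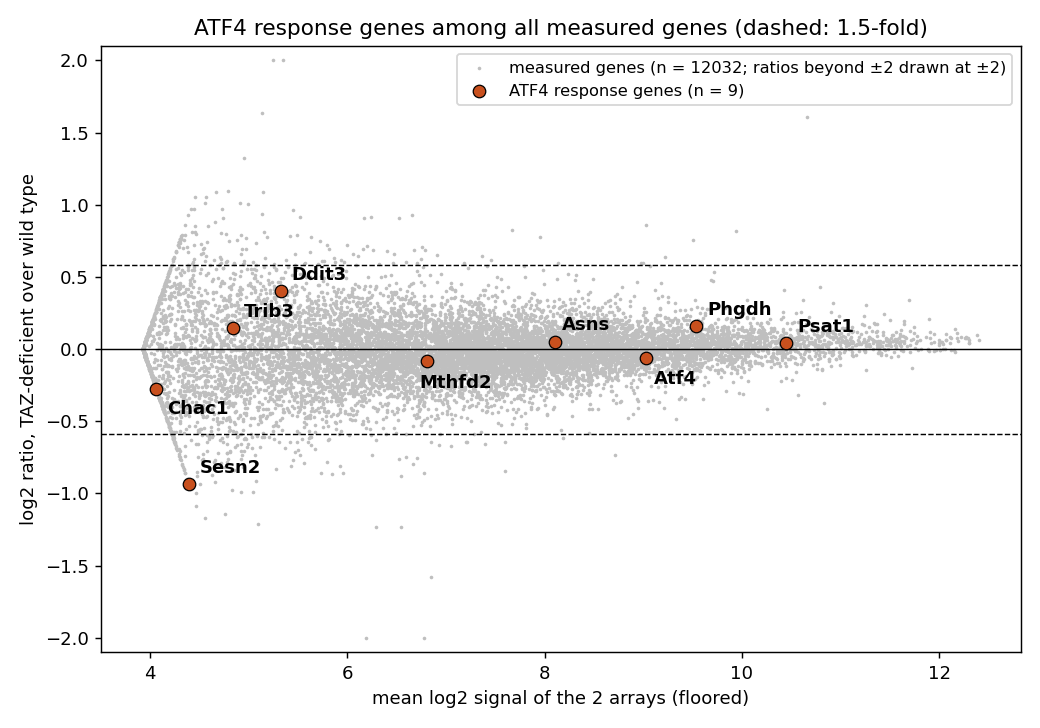
Each point is 1 of the 12032 measured genes, with the mean log2 signal of the 2 arrays on the horizontal axis and the log2 ratio (TAZ-deficient divided by wild type) on the vertical axis; the 9 measured ATF4 response genes are named. Ratios spread more widely at low signal, where Ddit3, Trib3, Chac1 and Sesn2 lie, and the diagonal edges at the left come from the floor.

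The genes around the pathway were examined in 9 lists of 112 distinct genes, of which 106 had a probe set of their own and 102 were measured. Only 1 of the 102 was at least 1.5-fold different (0.98%, against 2.75% of all measured genes), and 84.3% were within 1.2-fold, against 81.4%. Most listed genes reached 50 signal units on either array. Of all measured genes that did so, 1.22% were 1.5-fold different and 87.6% were within 1.2-fold. Among the 102, 57 ratios were above 0 and 45 below, while 46.8% of all measured genes were above 0. The single gene past 1.5-fold was Nupr1, a small stress-induced chromatin protein among the bZIP partners and related factors. It was 1.63-fold lower in TAZ-deficient lung (35.9 and 22 signal units), and its second probe set was 1.27-fold lower (31.4 and 24.8). Both log2 ratios, -0.71 and -0.34, lay inside the central 95% of genes of like signal (-0.77 to 0.75 and -0.77 to 0.76). With the median over probe sets, with an offset of 16 or with a 75th percentile floor, 0 of the listed genes were 1.5-fold different. Counts in these lists use the 1 probe set that stands for each gene.

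Upstream of ATF4, none of 13 measured genes for the eIF2 kinases, their regulators, the eIF2 phosphatase and the exchange factor eIF2B was 1.5-fold different, 4 ratios being above 0 and 9 below, with a median of -0.09. The eIF2B subunits Eif2b2 (495.5 and 517.9) and Eif2b5 (399.9 and 408.9) had the highest signals. All 4 eIF2 kinases had negative ratios, a detail picked out after the values were seen. Eif2ak1, the haem-sensing kinase HRI, read 206.5 and 164.8 (log2 ratio -0.33), with -0.17 and 0.02 at its other measured probe sets. Eif2ak2, the double-stranded RNA sensor PKR, read 74.4 and 59.3 (-0.33). Eif2ak3, the endoplasmic reticulum kinase PERK, read 170.2 and 148.9 (-0.19), and Eif2ak4, the amino acid sensor GCN2, read 93.9 and 87.9 (-0.10).

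Among the other 7 of 8 bZIP partners and related factors none was 1.5-fold different, and the median of the list was 0.03. Cebpb, a dimer partner of ATF4, read 1045.2 and 1107.6. Atf3, which ATF4 induces, was dim, with 24.2 and 30.7 (log2 ratio 0.34), and was picked out after its value was seen.

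In the list of enzymes for serine, glycine, proline and one-carbon metabolism, 14 genes were measured, 8 above 0 and 6 below, with a median of 0.01 and none 1.5-fold different. Aldh18a1, which opens proline synthesis, read 603.3 and 598.9, and the folate enzyme Mthfd1 read 429.6 and 426.1. Its other probe sets had log2 ratios of -0.21 and -0.30. Psph, which completes serine synthesis after Phgdh and Psat1, read 173.8 and 176.5. Shmt2, the mitochondrial enzyme that turns serine into glycine, was picked out after its values were seen because all 4 of its probe sets were higher in TAZ-deficient lung, with log2 ratios of 0.24, 0.14, 0.50 and 1.07, the last a bound from signals of 13.5 and 31.9.

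Amino acid transporters (10 measured, 7 above 0 and 3 below) had a median of 0.05. Slc38a2 and Slc38a1, which import neutral amino acids, each had probe sets of both signs. Those of Slc38a2 read 1039.1 and 1149.3, 103.2 and 118.5, and 22.1 and 16.8, with log2 ratios of 0.15, 0.20 and -0.40. Those of Slc38a1 read 429.9 and 471.6 (0.13), and 98.0 and 79.7 (-0.30). Slc3a2, the heavy chain that pairs with Slc7a11 at the cell surface, read 261.1 and 262.3. The aminoacyl-tRNA synthetases and the tRNA exporter Xpot (18 measured, 11 above 0 and 7 below) had a median of 0.07, with Nars1 at 725.6 and 840.9 and Kars1 at 753.4 and 795.0. Vars1, the valyl-tRNA synthetase, was picked out after its value was seen as the lowest of that list, with 243.3 and 169.6 (log2 ratio -0.52). Qars1, also picked out after its values were seen, read 579.6 and 630.3 (0.12), 414.1 and 497.2 (0.26) and 108.3 and 189.9 (0.81). The last of these probe sets was 1.75-fold higher and carries the suffix of a cross-hybridising set. None of these 28 genes was 1.5-fold different by the probe set that stands for it.

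The brakes on mTORC1 and the secreted targets (7 measured) had a median of 0.06. It turned to -0.05 when the median over probe sets was taken and to -0.06 when sets of suffix s, x or a were dropped. Ddit4, an mTORC1 inhibitor that also responds to low oxygen, read 479.3 and 533.1, and Eif4ebp1, a translation repressor, read 471.1 and 490.7. Of the relatives of Sesn2, Sesn1 had probe sets of both signs, with 213.4 and 235.0 (log2 ratio 0.14), 255.6 and 189.8 (-0.43) and 168.1 and 148.4 (-0.18). Sesn3 was lower at both of its probe sets, with 303.4 and 279.1 (-0.12) and 96.8 and 81.6 (-0.25). Fgf21 and Adm2, secreted ATF4 targets, were at background on both arrays.

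The remaining lists cover programmes that share triggers or targets with ATF4. In the ATF6 and XBP1 arms of endoplasmic reticulum stress, 15 genes had a median of 0.03, with 9 ratios above 0 and 6 below, and the chaperone Calr read 2448.5 and 2425.9. The chaperone Hspa5 (BiP) was higher in TAZ-deficient lung at all 3 of its probe sets, by unequal amounts. They read 2745.9 and 2895.8 (log2 ratio 0.08), 1601.7 and 2145.9 (0.42) and 287.8 and 337.2 (0.23). The second of these, 1.34-fold higher, lay above the central 95% of genes of like signal (-0.13 to 0.25), and the other 2 lay inside their ranges. Hyou1, picked out after its values were seen, was lower in TAZ-deficient lung at all 3 of its probe sets. They read 241.0 and 229.7 (log2 ratio -0.07), 145.2 and 78.5 (-0.89) and 40.2 and 27.9 (-0.53). The second, 1.85-fold lower, lay below the central 95% of genes of like signal (-0.42 to 0.37), and the other 2 lay inside their ranges. The 10 NRF2 and glutathione genes had a median of 0.10, with 7 above 0 and 3 below. Gpx4 read 1487.2 and 1550.7 and Txnrd1 842.5 and 847.5, with another, dim probe set of Txnrd1 at 32.1 and 49.4 (log2 ratio 0.62). That dim probe set lay just above the central 95% of genes of like signal (-0.62 to 0.59). The 8 measured p53 targets had a median of -0.05, with Ccng1 at 370.2 and 352.3 and Trp53inp1 at 254.3 and 249.2. No gene of these 3 lists was 1.5-fold different by the probe set that stands for it.

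**Figure D4:**
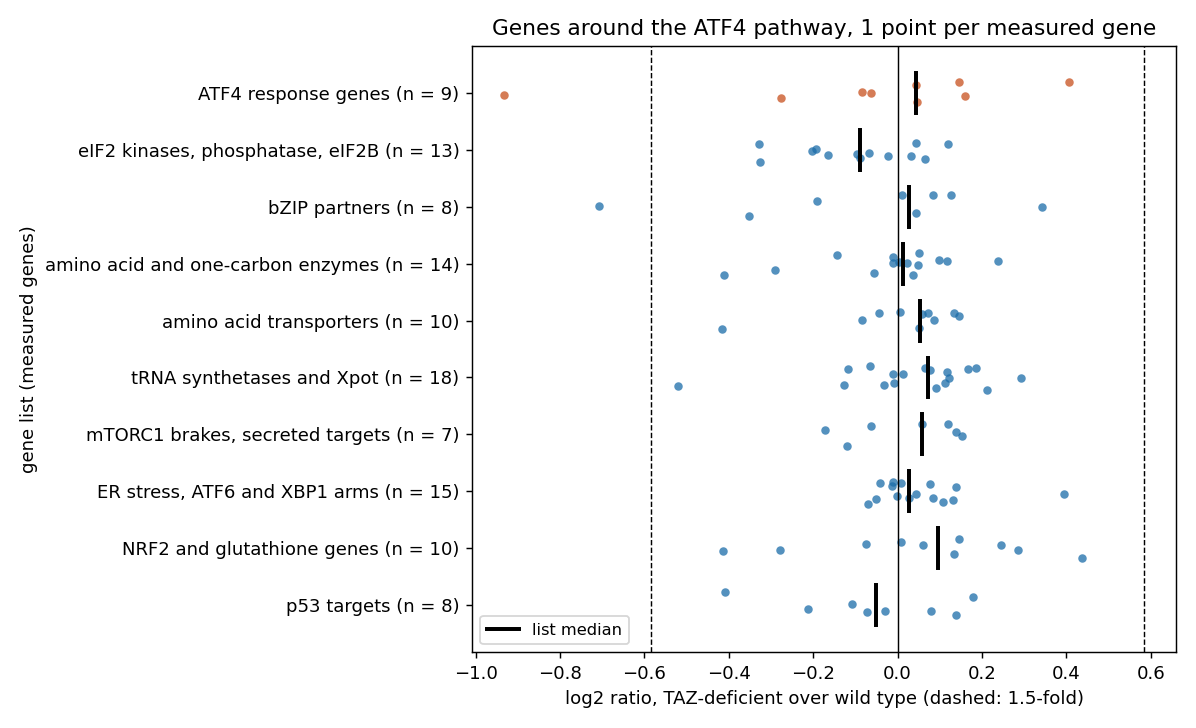
Log2 ratio (TAZ-deficient divided by wild type) for every measured gene of the ATF4 response (top) and of the 9 surrounding lists, 1 point per gene, with list medians as black bars and 1.5-fold as dashed lines. Medians lie between -0.09 and 0.10, and only Sesn2 and Nupr1 lie past 1.5-fold.

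The values of single genes were compared across 8 other ways of computing the ratio, which changed the floor, the scaling or the choice of probe sets. Of the 9 measured genes, 7 kept the sign of their ratio in every setting that gave them a value. The 2 exceptions were Trib3, at -0.08 with the median over its probe sets, and Psat1 under quantile normalization. Ddit3 ran from 0.29 to 0.43, Phgdh from 0.14 to 0.17, Asns from 0.04 to 0.07, Mthfd2 from -0.14 to -0.05 and Atf4 from -0.13 to -0.05. Sesn2 ran from -0.96 to -0.15, the smaller size coming from the median of its 2 opposed probe sets. It was no longer past 1.5-fold there or with an offset of 16 in place of the floor (-0.54). Its second probe set, of opposite sign, was not used alone in any setting. All settings rework the same 2 arrays, and other floors left the ratio of a bright gene such as Atf4 at -0.06. A kept sign is therefore not a replication.

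**Figure D5:**
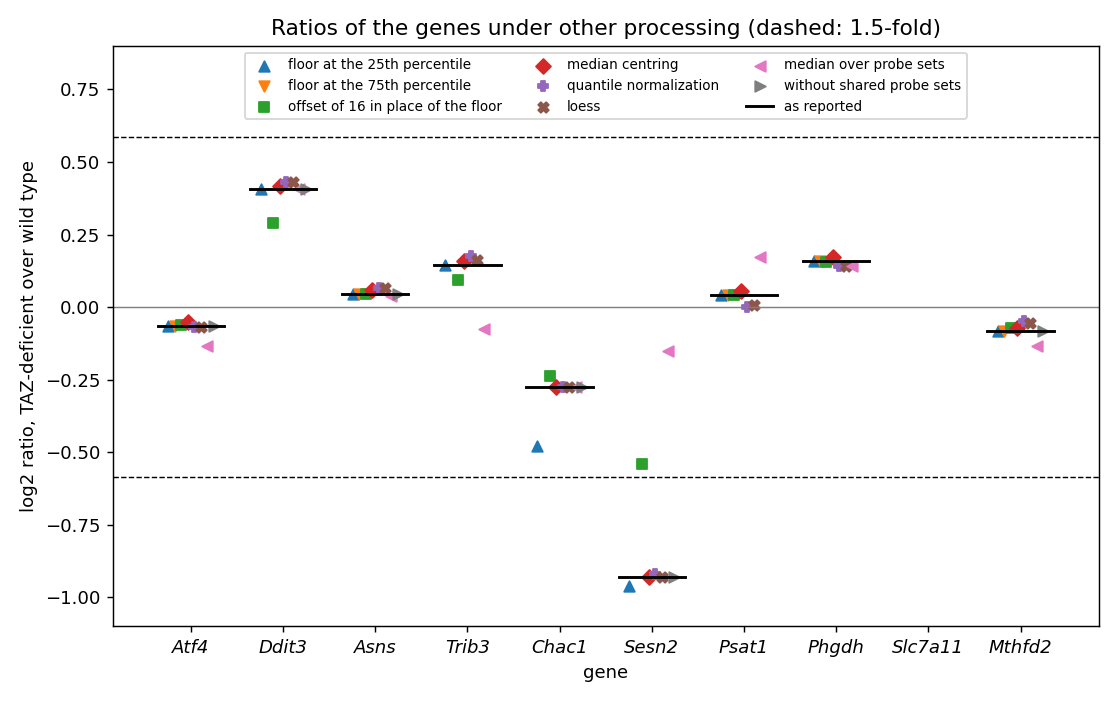
Log2 ratio (TAZ-deficient divided by wild type) for each gene as reported (black bars) and under 8 other settings (symbols); dashed lines mark 1.5-fold. Slc7a11, below the floor of 15.2 on both arrays, is not drawn, and Sesn2 is the only gene whose symbols lie on both sides of a dashed line.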

How the data were processed

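The authors deposited 1 linear signal intensity per probe set and array, with the software GCOS and MAS5 per the submitters' processing notes. In the deposited values the mean after trimming 2% at each end was 100.001 on both arrays, so each had been scaled as a whole. The genome build and detection calls were not given in the sources used here. Of 45101 probe sets, 34945 named 1 gene in the platform annotation, and symbols were updated through the Entrez identifier (GRCm38.p6 RefSeq) for 34741; 16 tRNA synthetase genes were matched under older symbols.

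Ratios are log2 of TAZ-deficient over wild type after a floor at the median (15.2); folds with 1 signal at the floor are lower bounds. With 1 array per group no test, SD between replicates or p-value exists, and a size of 1.5-fold was used. The number of arrays limits the precision. Named genes were all 10 response genes, Wwtr1 and, per list, up to 4 genes past 1.5-fold, otherwise the 2 of highest signal; others are said to be chosen after their values were seen or are given for their role. The genes and lists were chosen with earlier results of these data known. Other floors, an offset, other scalings, probe set choices and thresholds were tried. Ratios were computed with Python 3.11.15, numpy 2.4.6, pandas 2.3.3 and statsmodels 0.14.6 and checked on simulated data. The simulation changed brighter genes only, with noise that did not depend on signal, so it did not check ratios near the floor.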

Additional observations from a re-analysis of the deposited data

How the results depend on the processing

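No paired analysis was possible because each group was 1 pool on 1 array. The count of response genes at least 1.5-fold lower (1, Sesn2) became 0 with the floor at the 75th percentile (106.3 signal units), with an offset of 16 in place of the floor, with the median over probe sets and at a 2-fold threshold, and 2 at a 1.2-fold threshold, where the count higher was 1 in place of 0. The count of their probe sets at least 1.5-fold different (2) was 0 with a 75th percentile floor, with the offset and at 2-fold, and 6 at 1.2-fold. The count in the surrounding lists (1) was 2 with a 25th percentile floor (4.3), 0 with a 75th percentile floor, the offset, the median over probe sets and 2-fold, and 16 at 1.2-fold. A floor of 106.3 leaves 5 response genes measured, and a floor of 4.3 leaves all 10, Slc7a11 included. The other 103 summary values, medians included, moved by no more than 0.19 on the log2 scale or 1.5 times in a count. The median ratio of the response genes ran from -0.08 to 0.06. Without the probe sets of suffix s, x or a, Trib3, Psat1 and Phgdh have no value. The suffix of the first Psat1 probe set and of the second Trib3 probe set is a. Low signal limits Ddit3, Trib3, Chac1, Sesn2 and Slc7a11, all under 50 signal units, a range in which 8.13% of measured genes differed by at least 1.5-fold.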
